A study of Mus musculus with 16 samples.

Results

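The transcripts of the cytosolic ribosomal proteins were examined in sorted cells of the mouse olfactory mucosa. A gene was a member if its symbol had the form of a ribosomal protein of the large (Rpl) or small (Rps) subunit, or was Rplp0, Rplp1, Rplp2 or Rpsa; the Rps6k kinases and pseudogene symbols were left out. This rule found 68 genes among the 19505 genes that the array measured with a named probe set, and every member had 1 probe set. No measured expression value entered the rule. Of the 68, 55 were core ribosomal proteins (33 of the large subunit, with the stalk proteins Rplp0 and Rplp1, and 22 of the small subunit), 9 were paralogs or like-named genes (Rpl3l, Rpl7l1, Rpl10l, Rpl22l1, Rpl36al, Rpl39l, Rps4l, Rps27l and Rps19bp1), and 4 were retrocopies (Rpl32l, Rpl37rt, Rps23rg1 and Rps27rt). The members lay on 19 chromosomes, with at most 8 on any of them.

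S100a5-tauGFP mice carry a green fluorescent reporter tied to S100a5, a calcium-binding protein of mature olfactory sensory neurons whose transcription is known to follow odour-driven activity. The 24 mice, of both sexes and 7 to 12 weeks old, were kept singly in clean air chambers for 40 h. From 26 h on, they received 10 s pulses every 20 min of either filtered air (vehicle) or cigarette smoke as the odour. Mucosae of 3 mice were pooled, and each pool was sorted into reporter-positive (GFP+) and reporter-negative (GFP-) cells, giving 8 pools and 16 Clariom S arrays, 4 in each of vehicle GFP-, smoke GFP-, vehicle GFP+ and smoke GFP+. The sample labels name cigarette smoke, whereas the series' design text names bourgeonal; the sample labels were followed.

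A ribosome joins a small subunit, which reads the mRNA, to a large subunit, which forms the peptide bond and sends the new chain out through a tunnel. Nearly all of its proteins are made from short, abundant mRNAs that begin with a run of pyrimidines, the 5′ terminal oligopyrimidine tract (TOP), through which the mTOR kinase and Larp1 control their translation together. Ribosomal protein S6 is phosphorylated by S6 kinases downstream of mTOR and of other signals, and its phosphorylation is used as a mark of recently active neurons. The arrays measured transcript levels, not translation or phosphorylation.

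Start-site windows were compared because ribosomal protein mRNAs are known for this tract and the rule did not use it. RefSeq (build GRCm38.p6) gave promoter windows for 55 of the 68 members, 43 of them core. A run of at least 8 pyrimidines that began with C and whose first base lay within 20 bases of an annotated start was found in 21 of the 43 core genes (48.8%), against 15.4% of 27025 genes with a window. A C at the annotated start followed by 4 pyrimidines stood in 25.6% of the core genes and in 3.01% of all genes. Among the paralogs and like-named genes with a window, 2 of 8 held the longer run. The letters CCGGAAG, the core of the site of ETS factors, stood on either strand of the windows of 44.2% of the core genes and 9.93% of all genes. The letters ATGGCG, the core of the YY1 site, did so in 27.9% of the core genes and 10.2% of all genes. Of the 8 paralogs and like-named genes with a window, 2 held CCGGAAG and 5 held ATGGCG (62.5%). The motifs were counted separately, and overlaps between them were not removed. These are matches of letters only.

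The windows below show 15 bases before and 15 bases from the annotated start, 5′ to 3′ on the gene's strand, with the pyrimidine run in capitals. They were chosen to show core genes with a large or a small difference between the fractions, with and without the run, and a paralog with it. Rps9 is at chr7:3704026-3704055 on the plus strand, Rps26 at chr10:128626492-128626521 on the minus strand, Rps18 at chr17:33955651-33955680 on the minus strand and Rpl35 at chr2:39005117-39005146 on the minus strand. Rps10 is at chr17:27635230-27635259 on the minus strand, Rps6 at chr4:86857353-86857382 on the minus strand and Rpl15 at chr14:18270972-18271001 on the minus strand. Rps16, without the run, is at chr7:28350674-28350703 on the plus strand, and Rpl22l1, a paralog with it, at chr3:28805493-28805522 on the plus strand.
Rps9: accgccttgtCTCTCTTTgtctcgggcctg
Rps26: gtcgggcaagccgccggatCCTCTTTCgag
Rps18: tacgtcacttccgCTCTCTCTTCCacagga
Rpl35: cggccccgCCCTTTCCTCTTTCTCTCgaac
Rps10: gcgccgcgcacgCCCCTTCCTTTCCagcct
Rps6: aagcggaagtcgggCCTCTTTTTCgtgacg
Rpl15: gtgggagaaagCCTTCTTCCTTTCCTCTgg
Rps16: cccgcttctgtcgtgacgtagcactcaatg
Rpl22l1: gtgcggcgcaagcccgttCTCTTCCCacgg

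The largest part of the variation in the members lay between the sorted fractions. Averaged over the 55 core members, the deposited log2 signal of the GFP- arrays was 14.19, 14.01, 14.17 and 14.46 in vehicle pools 1 to 4 and 13.82, 14.02, 14.12 and 14.04 in smoke pools 1 to 4. The GFP+ arrays of the same pools gave 13.16, 13.12, 13.10 and 13.37 after vehicle and 13.12, 13.05, 13.33 and 13.49 after smoke. Every GFP- array lay above every GFP+ array. Within pools, the core mean of GFP+ cells was below that of GFP- cells by between 0.885 and 1.09 log2 units after vehicle and between 0.549 and 0.970 after smoke, and all 55 core genes had that sign in every pool except smoke pool 4, where 54 did.

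**Figure D1:**
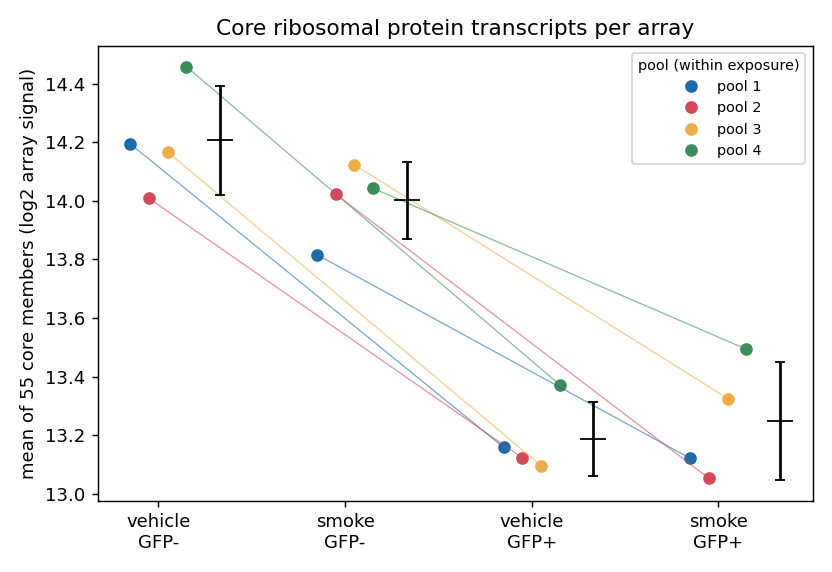
Mean log2 array signal of the 55 core ribosomal protein genes (y axis) in each of the 16 arrays, by group (x axis). Points are arrays, thin lines join the fractions of a pool, and the black marks are the group mean and SD (n = 4); every GFP- array lies above every GFP+ array, and vehicle pool 4 is the highest of its exposure in both fractions.

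In vehicle mice, 59 of the 68 members were lower in GFP+ than in GFP- cells and none was higher (limma, Benjamini-Hochberg adjusted p of at most 0.05 over all 19505 genes). Over all genes, 15.4% were lower and 24.2% higher. All 55 core genes were among the 59, with the retrocopies Rpl32l, Rpl37rt and Rps27rt and the paralog Rpl36al. The median of the members was -0.90 on the log2 scale, against 0.17 over all genes. For 58 of the 59, no GFP+ array reached any GFP- array, as was true of 15.1% of all genes; the exception was Rpl36al. Large-subunit core genes had a median difference of -0.83 and small-subunit core genes of -1.09. In bulk samples, fewer cells of a type that makes much of a transcript and less of that transcript per cell cannot be told apart.

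The sort itself was checked on the reporter's gene. S100a5 was at 16.39 to 16.51 in vehicle GFP+ arrays and 14.91 to 15.47 in vehicle GFP- arrays, and at 16.80 to 17.14 and 15.51 to 16.08 after smoke, higher in GFP+ cells in all 8 pools. Values above 16 exceed what a 16-bit scanner can record before processing, so the brightest probe sets may be compressed. Markers of mature olfactory sensory neurons, 13 genes, averaged 15.64 to 15.86 in GFP- arrays and 16.002 to 16.11 in GFP+ arrays. Every GFP+ array was above every GFP- array for this list, which was bright in both fractions; 7 of the 13 were higher in GFP+ cells of vehicle mice and none was lower. Markers of several other cell types were higher in the GFP- fraction: in vehicle mice all 22 immune markers were lower in GFP+ cells (median difference -5.51), as were all 11 microvillar, 9 of 10 globose basal and proliferation, and 11 of 14 sustentacular markers. Other lists were less uniform, with 7 of 13 gland, 5 of 11 immature neuron, 4 of 13 endothelial and stromal, 2 of 8 horizontal basal and 1 of 6 ensheathing markers lower. In smoke mice 20 immune, 11 microvillar, 9 globose basal and 7 sustentacular markers were lower, and 1 sustentacular marker was higher. In vehicle GFP+ arrays 6 of the 22 immune markers were at or below the 95th percentile of vomeronasal receptor genes (6.46), taken as the level of genes silent in this tissue, so their differences are only bounds. The summed immune list ran from 12.0 to 13.3 (mean log2 signal of the 22 genes) over GFP- arrays and from 7.52 up to 8.003 over GFP+ arrays. The part of these cells in the difference of the ribosomal protein transcripts was not tested.

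The 8 largest falls in vehicle mice were those of Rplp0, Rps16, Rps26, Rps28, Rps9, Rpl32, Rps20 and Rps21. Rplp0 is the base of the stalk that recruits translation factors to the large subunit. Its signal in GFP- arrays was 13.07, 12.54, 13.04 and 13.21 in vehicle pools 1 to 4 and 12.51, 12.75, 13.19 and 12.64 in smoke pools 1 to 4. Its signal in GFP+ arrays was 11.28, 10.81, 10.89 and 10.99 after vehicle and 10.75, 10.59, 11.29 and 11.03 after smoke. The fractions were more than 1 log2 unit apart with no overlap. The GFP+ minus GFP- difference was -1.98 (SE 0.19) in vehicle mice, a 3.93-fold lower level with a limma adjusted p of 2.63e-07, and -1.86 (SE 0.19, adjusted p 6.62e-07) in smoke mice. Rplp0 is often used as a reference gene in other assays.

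Rps16, a protein of the small-subunit head, was at 13.60, 13.34, 13.54 and 13.91 in vehicle GFP- arrays and at 11.75, 11.81, 11.83 and 12.07 in vehicle GFP+ arrays. After smoke it was at 13.15, 13.36, 13.43 and 13.23 in GFP- and at 11.64, 11.62, 12.11 and 12.35 in GFP+ arrays. The groups did not overlap, and the limma difference was -1.73 (SE 0.16, adjusted p 2.46e-07) in vehicle mice, 3.32-fold. Rps26, which lines the channel where the mRNA leaves the ribosome, was at 13.72, 13.46, 13.42 and 13.97 in vehicle GFP- arrays and 12.08, 11.93, 12.29 and 11.88 in vehicle GFP+ arrays. In vehicle mice the lowest GFP- array of Rps26 was above its highest GFP+ array by more than 1 log2 unit. Its difference there was -1.60 (SE 0.17, limma adjusted p 1.18e-06).

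The remaining 5 of the 8 were of similar size. Rps28 differed by -1.55, Rps9 by -1.54, Rpl32 by -1.53, Rps20 by -1.52 and Rps21 by -1.48, with SE from 0.17 to 0.25 and limma adjusted p from 2.21e-06 to 0.000177. Of these 8, all but Rplp0 and Rpl32 encode small-subunit proteins. At the other end of the core list, Rpl41, the smallest ribosomal protein, was at 16.12, 16.10, 16.21 and 16.30 in vehicle GFP- arrays and at 15.85, 15.87, 15.83 and 15.999 in vehicle GFP+ arrays. The groups did not overlap, but the difference was only -0.29, and every GFP- array of Rpl41 in vehicle mice was above 16. Rpl41 was named here after its values were seen.

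**Figure D2:**
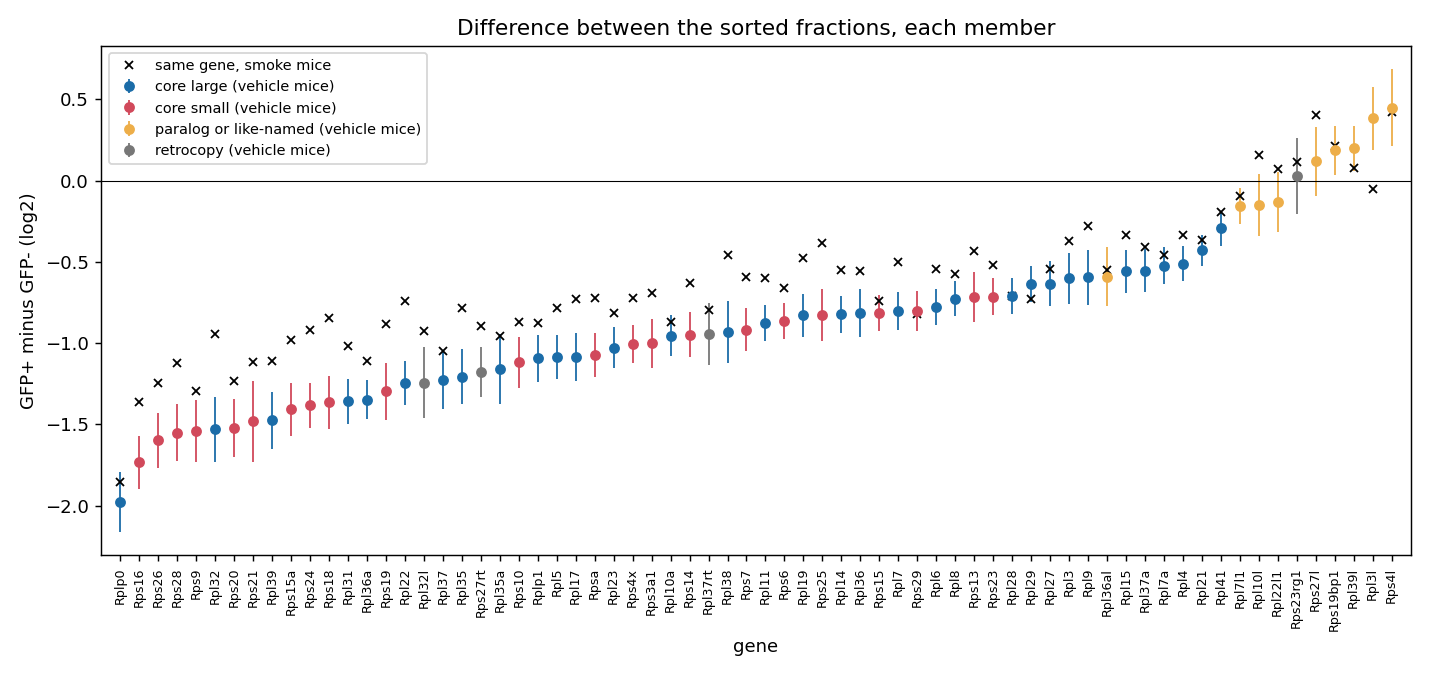
GFP+ minus GFP- difference (y axis, log2) of each of the 68 members (x axis), ordered by the vehicle value. Points with SE are vehicle mice, coloured by kind of gene, and crosses are smoke mice; core genes run from -1.98 (Rplp0) to -0.29 (Rpl41), and 8 of the 9 paralogs and like-named genes sit near or above 0.

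Rps6 and Rpsa were described in every comparison. Rps6, the substrate of the S6 kinases, was at 16.16, 15.96, 16.18 and 16.35 in vehicle GFP- arrays and 15.23, 15.28, 15.24 and 15.44 in vehicle GFP+ arrays. After smoke it was at 15.91, 16.09, 16.12 and 16.05 in GFP- and 15.32, 15.19, 15.47 and 15.55 in GFP+ arrays, again without overlap. The limma difference was -0.86 (SE 0.11, adjusted p 1.01e-05) in vehicle mice and -0.66 (SE 0.11, adjusted p 0.000194) in smoke mice. Rpsa, a small-subunit protein also known as a laminin receptor precursor, was at 13.43, 13.09, 13.31 and 13.36 in vehicle GFP- arrays and 12.26, 12.20, 12.01 and 12.44 in vehicle GFP+ arrays. Its groups did not overlap, and it fell by 1.07 (SE 0.14, limma adjusted p 7.89e-06) in vehicle mice.

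In smoke mice, sorted from other animals, 53 of the 68 members were lower in GFP+ cells and none was higher, against 14.4% lower and 18.3% higher over all genes. The median of the members was -0.70, against 0.15 over all genes. Of the core genes, 49 passed, and these same 49 had no overlap between fractions; with 3 retrocopies, 52 members did not overlap, as did 13.5% of all genes. The 6 core genes that did not pass were Rpl38 at -0.46, Rps25 at -0.39, Rpl3 at -0.37, Rpl15 at -0.34, Rpl9 at -0.28 and Rpl41 at -0.20, with limma adjusted p from 0.061 to 0.218. With the pool as a fixed replicate block, Rpl38, Rpl3 and Rpl15 passed too (limma adjusted p of 0.0100, 0.0150 and 0.0258), which made 56 members lower; the other 3 did not. With the pool as a random block the 3 adjusted p were 0.0488, 0.0489 and 0.0385. Rpl38 is known for its part in the translation of Hox mRNAs, and Rpl3 lies at the peptidyl transferase centre. Without smoke pools 2 and 4, the pools with more sustentacular signal in GFP+ cells (means of 10.62 and 10.96 over the 14 markers, against 10.06 and 10.23), 39 members were lower, 38 of them core. That fit kept only smoke pools 1 and 3, and fewer arrays alone can lower the count. The mean core difference was -0.695 and -0.798 in pools 1 and 3, against -0.970 and -0.549 in pools 2 and 4.

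The order of the core genes was alike in the separate mice. Across the 55 core genes, the vehicle and smoke sort differences, which share no array, had a Pearson r of 0.924 and a Spearman rho of 0.908; genes are not independent replicates, and both values share each gene's probe set and level. Of the 8 core genes with the largest falls in vehicle mice and the 8 in smoke mice, 7 were on both lists; Rpl32 was on the first and Rpl39 on the second. Rpl39, which lies by the exit tunnel of the large subunit, differed by -1.11 (SE 0.17, limma adjusted p 0.000103) in smoke mice.

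The size of the fall varied with the level of the probe set. Among the core genes with a mean over all arrays below 12, the median vehicle difference was -1.30 (7 genes); from 12 to 14 it was -1.16 (24 genes), from 14 to 15 it was -0.85 (12 genes), and at 15 and above it was -0.75 (12 genes). The Pearson r between mean level and difference was 0.469 over the 55 core genes, as a description. The 9 core genes with an array above 16 had a median of -0.71, and the 46 never above it had -1.02. Genes with the pyrimidine run had a median difference of -1.09 (21 genes) and those with a window but no run had -1.003 (22 genes), with ranges that overlapped over most of their width. Rps16, which lacks the run in its window, fell further than Rps6 and Rpl15, which have it. The run was sought only near annotated starts, so a window without it need not mean an mRNA without the tract. The split therefore cannot show whether the tract goes with the difference.

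**Figure D3:**
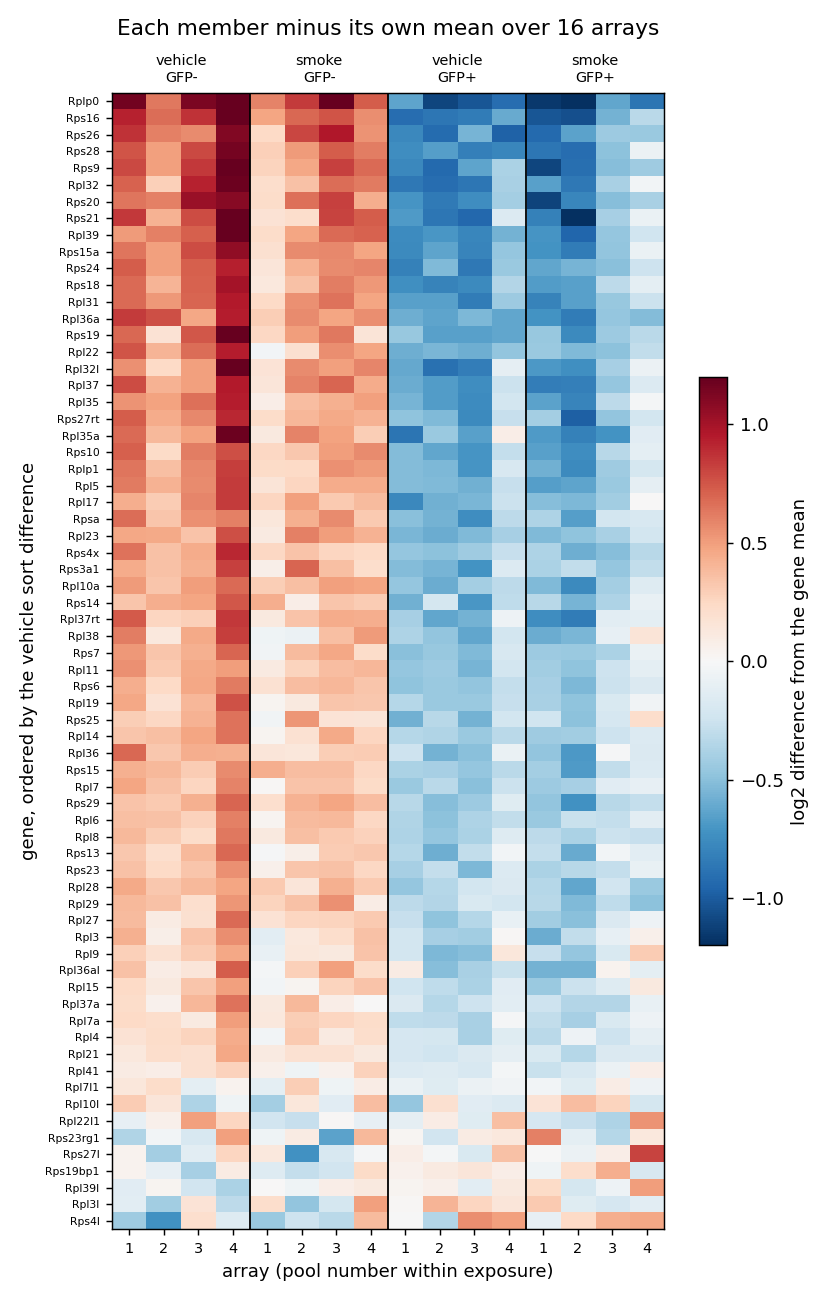
Each member (rows, ordered by the vehicle sort difference) in each array (columns, by group and pool), as log2 difference from the gene's own mean over 16 arrays; the colours saturate at the ends of the scale. The core genes change together from the GFP- to the GFP+ columns, vehicle pool 4 is the reddest GFP- column, and the lowest rows, which are paralogs and like-named genes with the retrocopy Rps23rg1, show no such step.

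How far equal-median scaling alters these calls was measured, because the array medians over all genes were 8.19 to 8.29 in GFP- and 7.87 to 7.96 in GFP+ arrays. With the array medians set equal, the vehicle median of all genes moved by 0.34, from 0.17 to 0.51, and 65.7% of all genes were then higher and 11.6% lower. Of the members, 49 stayed lower (46 of them core) and 4 were higher (Rpl39l, Rpl3l, Rps19bp1 and Rps4l), with a median of -0.55. The core genes no longer called were Rpl3, Rpl4, Rpl7a, Rpl9, Rpl15, Rpl21, Rpl27, Rpl37a and Rpl41, and 54 of the 55 core differences stayed below 0. In smoke mice the same scaling gave 38 lower members (35 core) and 5 higher members (Rpl10l, Rpl39l, Rps19bp1, Rps27l and Rps4l), with 62.4% of all genes higher and 10.7% lower.

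The paralogs and like-named genes were described separately, because several stand in for a core protein in particular tissues. Of these 9 genes, only Rpl36al passed in vehicle mice (-0.59, SE 0.18, limma adjusted p 0.0164) and in smoke mice (-0.55, SE 0.18, adjusted p 0.0294); the median of the 9 was 0.12 in vehicle and 0.076 in smoke mice. The Rpl36al call was lost without single arrays while the difference kept its sign: in vehicle mice it was -0.46 (limma adjusted p 0.0629) without the GFP- array of pool 4 and -0.51 (0.0529) without the GFP+ array of pool 2. In smoke mice it was -0.53 and -0.46 (adjusted p 0.0634 and 0.0932) without the GFP- arrays of pools 2 and 3, and -0.46 in both cases (0.0866 and 0.0887) without the GFP+ arrays of pools 1 and 2. With array medians set equal, it was -0.25 (limma adjusted p 0.198) in vehicle and -0.23 (0.243) in smoke mice. Rpl22l1, a paralog whose mRNA Rpl22 is known to repress in mice, was at 9.89, 10.05, 10.48 and 10.25 in vehicle GFP- and at 9.88, 10.08, 9.84 and 10.35 in vehicle GFP+ arrays. These values overlapped almost wholly, with a difference of -0.13 (SE 0.19, limma adjusted p 0.604). Rpl22 itself was at 14.53, 14.19, 14.45 and 14.72 in vehicle GFP- arrays and at 13.19, 13.23, 13.19 and 13.30 in vehicle GFP+ arrays, without overlap.

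Rps4l, which RefSeq classes as a transcribed pseudogene, was at 9.95, 9.65, 10.58 and 10.22 in vehicle GFP- and at 10.37, 10.02, 10.93 and 10.87 in vehicle GFP+ arrays. Its GFP+ array was the higher in all 8 pools although the groups overlapped, and its difference was 0.45 (SE 0.24, limma adjusted p 0.144). With the pool as a fixed replicate block, Rps4l passed as higher in vehicle and smoke mice (limma adjusted p 0.0150 and 0.0239); with the pool as a random block it did not (0.101 and 0.132). Rps27l, a p53 target, differed by 0.12 and 0.41 in vehicle and smoke mice, and Rps19bp1, a partner of Rps19, by 0.19 and 0.21; neither passed. Rpl7l1, a nucleolar relative of Rpl7, differed by -0.16 and -0.095, and Rpl10l, known for its part in male meiosis, by -0.15 and 0.16. Rpl3l, the paralog of striated muscle, differed by 0.38 and -0.049, and Rpl39l, enriched in testis, by 0.20 and 0.076. Rpl3l and Rpl39l lay at or below the vomeronasal level of silent genes in all 4 groups, and the retrocopy Rps23rg1 in 3 groups.

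Within pools, the sort difference of the core gene was compared with that of its copy in 9 pairs, by an exact two-sided sign-flip permutation test over the 8 pools; with 8 pools the smallest p is 0.0078. The GFP+ minus GFP- difference averaged -0.99 for Rpl22 and -0.030 for Rpl22l1, a gap of -0.96 (SD 0.41, n = 8) with the same sign in 8 of 8 pools (exact p 0.0078, 0.0100 after adjustment over the 9 pairs). Rps4x and Rps4l were apart by -1.30 (SD 0.36, n = 8), and Rpl39 and Rpl39l by -1.43 (SD 0.40, n = 8), each with the core gene lower in 8 of 8 pools and the same exact p. The pairs Rpl7 and Rpl7l1, Rpl36a and Rpl36al, Rpl37 and Rpl37rt, and Rps23 and Rps23rg1 also had the same sign in 8 of 8 pools, with gaps of -0.52, -0.66, -0.27 and -0.69. Rpl3 and Rpl3l differed by -0.65 in 7 of 8 pools (exact p 0.0234, adjusted 0.0264). Rpl32 and its retrocopy Rpl32l were apart by -0.15 in 6 of 8 pools (exact permutation p 0.0781), and probe sets of near-identical copies may share target sequence. Array differences of dim probe sets are compressed, so the gaps with Rpl3l, Rpl39l and Rps23rg1 are not gaps in transcripts per cell.

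Other parts of the translation system did not follow the core members throughout. Fau, which encodes the small-subunit protein S30 fused to a ubiquitin-like protein, was lower in GFP+ cells by 0.86 log2 units (-0.86, SE 0.13, limma adjusted p 5.59e-05) in vehicle mice and passed in smoke mice at -0.71. Of 23 translation factors and other TOP mRNAs, 17 fell and none rose in vehicle mice, with a median of -0.45. Over all genes, 15.4% fell and 24.2% rose there. In smoke mice 13 of the 23 fell, against 14.4% of all genes. Eef1b2, an exchange factor subunit of elongation, fell by 1.15, and Pabpc1, the poly(A) binding protein, fell by 1.06. Vim, an intermediate filament gene of non-neuronal cells whose mRNA carries the tract, was on the list too and differed by -5.51. With the array medians set equal, 10 of the 23 fell and 3 rose in vehicle mice, whereas most of all genes then rose.

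Of 52 genes for rRNA synthesis and ribosome assembly, 5 rose and 3 fell in vehicle mice (median 0.13), against 24.2% higher and 15.4% lower over all genes; with array medians set equal, 39 rose and 1 fell, against 65.7% and 11.6%. The nucleolar chaperone Npm1 differed by -0.62 (SE 0.11), Rrp12, which takes part in export of the small-subunit precursor, by 0.85 (SE 0.18), and Taf1a, a subunit of the RNA polymerase I selectivity factor, by 0.56 (SE 0.14), all past the limma threshold in vehicle mice. Of 21 regulators of these mRNAs, 4 rose and 4 fell in vehicle mice. Myc, an activator of ribosomal protein genes, averaged 10.28 in vehicle GFP- arrays and 5.42 in vehicle GFP+ arrays, below the vomeronasal level of 6.46, so its level was at least 14.1-fold lower in GFP+ cells when set against that level. Eif4ebp1, an inhibitor of cap binding, differed by -0.91 and Rptor, a subunit of mTOR complex 1, by 0.56. Under equal array medians 14 of the 21 rose and 2 fell, so no direction is given for this list.

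Of 6 kinases named for S6, 3 passed as higher and 1 as lower in vehicle mice, against 24.2% and 15.4% of all genes. Rps6kl1 averaged 6.67 in vehicle GFP+ arrays, where the vomeronasal level was 6.46, and 5.92 in vehicle GFP- arrays, where that level was 6.19. It was thus near or below the level of silent genes in both fractions, and no fold is given. Rps6kc1 differed by 0.73 (SE 0.15), and Rps6ka3, the kinase RSK2, by -0.51 (SE 0.16). Of the rest, named outside the naming rule, Rps6ka6 passed at 0.41, while Rps6kb2 (-0.033) and Rps6ka5 (-0.25) did not pass. Rps6kb1 was not among the measured genes. The Rps6ka3 call was lost with equal array medians (limma adjusted p 0.347) and without the GFP- array of vehicle pool 1 (0.0555) or the GFP+ array of vehicle pool 2 (0.0544). The mitochondrial ribosome is a separate particle with its own proteins, and of its 76 measured genes 23 rose and 1 fell in vehicle mice (24.2% and 15.4% of all genes), with a median of 0.27 against 0.17 over all genes. In smoke mice 19 rose and none fell, against 18.3% and 14.4% of all genes. Mrps26 differed by 0.61 (SE 0.14, limma adjusted p 0.00257), Mrpl40 by 0.48 and Mrps22 by 0.48 in vehicle mice. With array medians set equal, 67 of the 76 rose in vehicle mice, which is the direction in which most genes then moved.

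**Figure D4:**
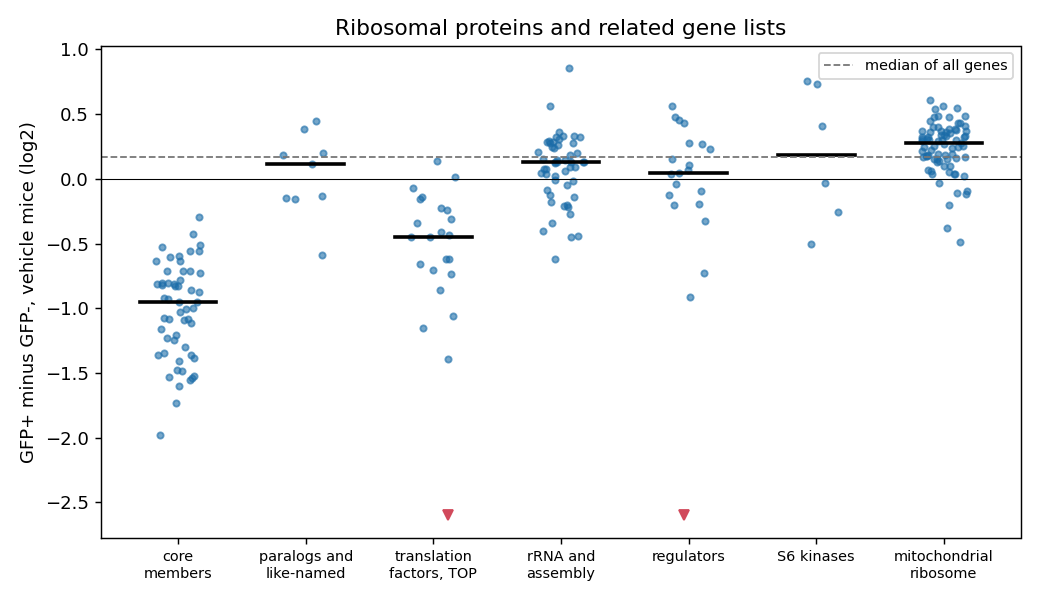
GFP+ minus GFP- difference in vehicle mice (y axis, log2) of the core members, the paralogs and like-named genes and 5 related lists (x axis). Points are genes, black bars list medians and the dashed line the median of all genes (0.17); the 2 triangles at the bottom stand for Vim (-5.51) and Myc (-4.86), which lie below the axis; the GFP+ mean of Myc is below the vomeronasal level, so its point is not a measured size.

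Smoke was compared with vehicle to ask whether the odour moved these transcripts within a fraction. In GFP- cells none of the 68 members passed, while 0.128% of all genes did. All 55 core genes were nevertheless below 0, as were 65 of the 68 members, against 47.6% of all genes; the median of the members was -0.19 and that of all genes 0.011. At an unadjusted limma p under 0.05 there were 3 of the 68 members (Rpl22, Rps4x and Rpl36a), against 1115 of all 19505 genes. The share of the members was thus no larger than that of all genes. The lowest adjusted p of a member was 0.673. Only Rpl36 and Rps4x had no overlap between smoke and vehicle arrays, against 1.3% of all genes that were lower without overlap.

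Rpl22 in GFP- arrays was at 14.53, 14.19, 14.45 and 14.72 after vehicle and at 13.75, 13.98, 14.33 and 14.25 after smoke. The groups overlapped, and the difference was -0.40 (SE 0.14, limma adjusted p 0.673; exact permutation p 0.0857, where 4 against 4 arrays cannot go below 0.0286). Rps4x, the X-linked copy of the small-subunit gene, was at 13.13, 12.83, 12.92 and 13.38 after vehicle and at 12.72, 12.82, 12.74 and 12.72 after smoke. Its smoke arrays all lay just below its lowest vehicle array, with a difference of -0.32 (SE 0.12, limma adjusted p 0.776; exact permutation p 0.0286). Rpl36a differed by -0.28, Rpl5 by -0.28, Rps24 by -0.29 and Rpl14 by -0.22, all with limma adjusted p above the threshold. Rplp0, Rpsa and Rps6 differed by -0.20, -0.18 and -0.12.

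A pair of GFP- arrays stood out for the core genes. Vehicle pool 4 held the highest of the 8 GFP- values for 51 of the 55 core genes, and for 12.2% of all genes. Smoke pool 1 held the lowest for 42 of the 55, and for 15.3% of all genes. Without the vehicle pool 4 array the median of the members was -0.11, and without the smoke pool 1 array it was -0.12. Each array was picked by its extreme values in these genes, so a smaller difference without it was built in. No fit left out both, so how much of the shared direction lay in them is not known. The immune list had its extremes in the same arrays. Its mean was 13.32 in vehicle pool 4, the highest of the 8 GFP- arrays, and 12.02 in smoke pool 1, the lowest. Between these ends the orders differed. Smoke pool 4 was next lowest on the immune list (12.17), but its core mean of 14.04 was above that of vehicle pool 2 (14.01, immune 12.57). Smoke pool 3 was next highest (13.10), but its core mean of 14.12 was below those of vehicle pools 1 and 3 (14.19 and 14.17). All 22 immune markers were below 0 in this comparison, with a median of -0.35, and none passed. The part of immune cells in the ribosomal protein values was not tested.

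In GFP+ cells none of the 68 members passed after smoke, none had an unadjusted limma p under 0.05, and none was free of overlap, while 0.108% of all genes passed and 2.99% did not overlap. An unadjusted limma p under 0.05 was found for 936 of all 19505 genes. The median of the members was 0.063, with 49 above 0 and 19 below. Over all genes the median was -0.0044, with 9536 of the 19505 above 0. Rps25 differed by 0.24, Rpl10l by 0.29, Rps18 by 0.22, Rpl32 by 0.27, Rps24 by 0.18 and Rpl3l by -0.25, each with a limma adjusted p of 0.999. Rplp0, Rpsa and Rps6 differed by -0.076, 0.17 and 0.081. Smoke pool 4 held the highest of the 8 GFP+ values for 38 of the 55 core genes, and for 14.02% of all genes. Without that array the median of the members was -0.016. The array was picked by its high values in these genes, so a lower median without it was built in. The sustentacular list of 14 genes averaged 10.96 in smoke pool 4, the highest of the 8 GFP+ arrays. The next highest, smoke pool 2 at 10.62, had the lowest core mean of the 8 GFP+ arrays (13.05). The part of sustentacular cells in the ribosomal protein values was not tested.

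**Figure D5:**
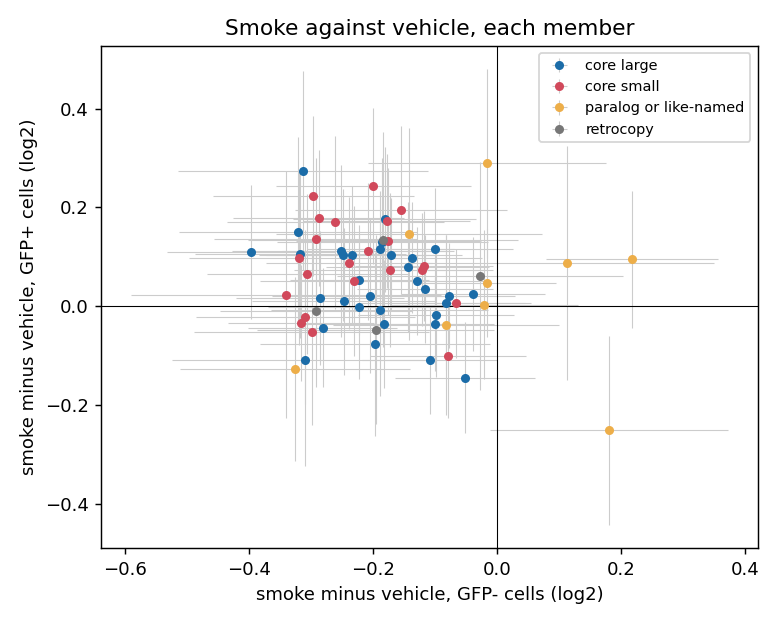
Smoke minus vehicle difference of each member in GFP- cells (x axis, log2) and in GFP+ cells (y axis, log2), with SE bars, coloured by kind of gene. All core genes lie left of 0 in GFP- cells, and no member passed the test in either fraction.

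The difference of the smoke effect between the fractions was tested directly, as (smoke minus vehicle in GFP+) minus (smoke minus vehicle in GFP-). None of the 68 members passed, against 0.174% of all genes. An unadjusted limma p under 0.05 was found for 3 of the 68 members and for 1114 of all 19505 genes, so the members' share was no larger. The median of the members was 0.25, against -0.0093 over all genes. Above 0 were 62 of the 68 members and 9430 of the 19505 genes. The lowest adjusted p of a member was 0.825. Rpl22 differed by 0.51 (SE 0.19), Rps24 by 0.47 (SE 0.20), Rps18 by 0.52 (SE 0.23) and Rpl32 by 0.59 (SE 0.29). Rplp0, Rpsa and Rps6 differed by 0.12, 0.35 and 0.20. Without the vehicle pool 4 GFP- array the median was 0.18, and without the smoke pool 4 GFP+ array it was 0.17. These arrays were picked by their extreme values in the core genes. No gene of the 6 related lists passed in any of the 3 smoke comparisons; the nearest included Rptor in GFP- cells (0.35, SE 0.12, limma adjusted p 0.673) and Eif4ebp2, another inhibitor of cap binding, in GFP+ cells (-0.48, SE 0.16, adjusted p 0.805).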

How the data were processed

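Gene expression was measured on 16 Clariom S arrays from biotin-labelled cRNA prepared, per the labels, from 50 to 100 ng of total RNA. The authors deposited normalized log2 values for each probe set, made with Affymetrix Expression Console per the submitters' processing notes; neither its version nor its normalization and background correction is stated there, and scanner files were not used here. Values ran from 2.29 to 18.60. The number of arrays limits the precision. Of 28846 probe sets, 19572 carried a gene symbol in the platform annotation; the probe set with the highest mean was kept for each of 19505 genes.

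Differences were tested on the deposited log2 values with limma 3.58.1 in R 4.3.3 (lmFit with 4 group means over all 16 arrays, eBayes, two-sided, Benjamini-Hochberg over all genes at 0.05), and the script was tested on simulated data. Exact permutation tests, counts and figures used Python 3.11.15 with SciPy 1.17.1. Both fractions of a pool were sorted from the same mice, so pool numbers pair GFP+ with GFP-; the residual correlation within pools was 0.0453 to 0.22. Smoke and vehicle pools are different mice. Each pool is a sample of 3 mice. The limma p-values of the main fit measure the spread between the arrays of a group, each from a different pool. That fit did not use the pairing of the fractions within a pool.

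Named were the 8 largest rises and falls among members that passed, or the 6 with the smallest p where fewer than 6 passed; Rplp0, Rpsa and Rps6 always; paralogs in the sort comparisons; and up to 3 genes of each related list that passed, by p, or else the nearest. Members, lists and tests were chosen with earlier results of these data known. The split of core genes from retrocopies was made after the values were at hand. Alternatives covered the scaling, the variance model, the pool as a block, dim and saturated probe sets, the threshold and leaving out arrays or smoke pools 2 and 4. For smoke against vehicle within a fraction, the fixed block was the pool number, which joins different mice and is not a pairing.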

Additional observations from a re-analysis of the deposited data

Results flagged for a closer look

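Within groups of 4 arrays, 4 of 120 sets of values (29 named members and the core mean in 4 groups) had an array whose gap to the nearest of the others passed Dixon's 95% critical value; chance flags about 1 in 20 groups. Rpl32 was at 12.70 in the GFP+ array of vehicle pool 4, against 12.18 to 12.24 in the other vehicle GFP+ arrays. Rps18 was at 13.55 in the same array, against 13.10 to 13.17. Rps27l was at 10.88 in the GFP+ array of smoke pool 4, against 9.99 to 10.14. Rpl3l, at the level of silent genes, was at 5.10 in the GFP+ array of smoke pool 1, against 4.59 to 4.67.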

How the results depend on the processing

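The number of members lower in GFP+ cells was 57 to 59 in vehicle mice and 49 to 57 in smoke mice when each array was left out in turn, with none higher, and the smoke comparisons had no member past the threshold without any array. With array medians set equal, 4 members were higher in vehicle and 5 in smoke mice, and the medians became -0.55 and -0.38. With the pool as a replicate block, 1 member was higher and 59 lower in vehicle mice and 1 was higher and 56 lower in smoke mice; the calls gained were those of Rps4l in both and of Rpl38, Rpl3 and Rpl15 in smoke mice. Among the results of the genes picked by the naming rule (1 gene in 1 comparison each), the block changed no call but those of Rps4l. Of these results, 9 (6 genes) gained and 4 (3 genes) lost a call with equal medians, beside the core genes given in the report; 4 lost one without smoke pools 2 and 4, 2 when only the arrays compared were fitted, and leaving out arrays in turn gave 22 losses. Among genes that had passed, Rpl41 in vehicle mice turned from -0.29 to 0.049 with equal medians; the turns below were of genes that had not passed. In vehicle mice Rpl10l became 0.19 with equal medians and 0.23 with quantile normalization over all arrays, Rpl22l1 0.21 and Rpl7l1 0.19 with equal medians. In smoke mice Rpl3l became 0.27 and Rpl7l1 0.23 with equal medians, and without smoke pools 2 and 4 Rpl22l1 became -0.17, Rpl3l 0.049 and Rpl7l1 0.11. In GFP+ cells Rplp0 became 0.026 without those pools. Leaving out arrays in turn gave, in smoke mice, -0.14 to 0.17 for Rpl22l1, -0.052 to 0.18 for Rpl39l and -0.21 to 0.11 for Rpl3l. For smoke in GFP+ cells it gave -0.20 to 0.032 for Rplp0 and -0.034 to 0.10 for Fau, and for the difference of the smoke effects -0.0031 to 0.26 for Rplp0. The cause of these turns was not tested. Signal over background limits Rpl3l, Rpl39l, Rps23rg1, Myc and Rps6kl1, and signals above 16 may limit 9 core genes.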
